A study of Mus musculus with 6 samples.

Results

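The 10 genes described here code for AP-1 subunits and other immediate early proteins: the Fos family (Fos, Fosb, Fosl1, Fosl2), the Jun family (Jun, Junb, Jund), the related factor Atf3, the zinc finger factor Egr1 and the stress-response gene Ier3. They were taken by name from the 23791 named entries of the count table, and all 10 had an entry. The study sequenced messenger RNA in 6 libraries of RM1 cells, a mouse (C57BL/6) prostate cancer line that was made by transformation with ras and myc oncogenes. RM1 is the unlabelled parental line (libraries a and b). RM1536 is a pool of RM1 clones that carry eCFP, a fluorescent protein, and luc2, a luciferase (libraries a and b). The bone and lung libraries (1 each) are RM1536 cells recovered from the femur and from the lung of a single mouse, 16 days after cells stained with the dye PKH26 had been injected into its heart. Only cells that had lost the dye, and so had divided, were sorted for these 2 libraries. All groups passed through sorting and regrowth in DMEM with 5% FBS to 85% coverage of the flask, so bone and lung describe recultured cells and not tumours in place. There is no second bone or lung library, and the labels leave unsaid whether a and b of a line are separate cultures. The p values therefore measure the spread between the culture duplicates, which may be partly technical.

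AP-1 is a dimer of basic leucine zipper proteins. Jun proteins pair with each other or with Fos proteins, and the dimers bind the TRE and CRE motifs of many promoters. Growth factors and serum switch on the immediate early genes through MAP kinases without new protein synthesis: Fos, Fosb and Egr1 peak and decay quickly, whereas Fosl1 is kept high by sustained ERK signalling in many Ras-driven cells. Junb often restrains what Jun drives, and Atf3 is a stress-induced member that can repress or activate.

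The starts of 4 members are shown because the results turn on them: Junb was the only member called, Jun is of the same family and was not called, and Fos and Atf3 differed most between duplicates and in opposite directions. Each sequence is the 250 bases before the RefSeq start site in GRCm38.p6, written 5′ to 3′ on the strand of the gene. They lie at chr8:84978749-84978998 (minus strand, Junb), chr4:95052223-95052472 (minus, Jun), chr12:85473640-85473889 (plus, Fos) and chr1:191183334-191183583 (minus, Atf3). Capitals mark any match, on either strand, to the motifs named below.
Junb: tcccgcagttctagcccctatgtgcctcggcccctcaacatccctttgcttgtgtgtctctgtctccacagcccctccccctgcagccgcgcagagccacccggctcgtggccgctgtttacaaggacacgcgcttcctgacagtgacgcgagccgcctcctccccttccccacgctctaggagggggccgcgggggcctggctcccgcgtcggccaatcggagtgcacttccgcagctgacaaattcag
Jun: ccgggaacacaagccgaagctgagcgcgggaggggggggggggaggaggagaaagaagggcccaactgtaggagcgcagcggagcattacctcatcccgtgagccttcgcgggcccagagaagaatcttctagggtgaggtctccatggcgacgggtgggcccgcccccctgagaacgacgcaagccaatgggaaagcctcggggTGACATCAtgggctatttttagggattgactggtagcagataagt
Fos: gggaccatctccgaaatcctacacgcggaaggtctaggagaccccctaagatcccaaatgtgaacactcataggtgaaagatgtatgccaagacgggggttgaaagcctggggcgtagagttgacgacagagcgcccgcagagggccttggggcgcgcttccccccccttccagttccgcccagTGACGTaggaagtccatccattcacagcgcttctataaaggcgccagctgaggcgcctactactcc
Atf3: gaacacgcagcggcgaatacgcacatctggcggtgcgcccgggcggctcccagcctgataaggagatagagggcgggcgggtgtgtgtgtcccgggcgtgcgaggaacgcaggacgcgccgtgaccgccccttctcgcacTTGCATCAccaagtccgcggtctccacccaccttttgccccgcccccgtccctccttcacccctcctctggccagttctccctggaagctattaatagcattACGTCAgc

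The motifs were chosen with these letters in view. Of the 10 members, 8 had an entry among the RefSeq promoters, and Fosl1 and Egr1 had none. The CRE core TGACGT was found 66 bases before the start of Fos and 8 bases before the start of Atf3, where it reads ACGTCA, and 6.47% of all 32851 promoters hold it. Atf3 also held TGATGNAA, the composite ATF4 and C/EBP element, starting 110 bases upstream as TTGCATCA (3.45% of promoters). Jun held TGACATCA, the TRE-like element through which Jun is known to act on its own promoter, 45 bases upstream (2.93% of promoters). The TRE TGACTCA (4.46% of promoters) and the CArG box bound by SRF (1.47%) had no match in any of the 8 windows, and Junb had no match to any of these motifs. An absent match covers these 250 bases only, and sequence further upstream was not searched. The bases just after the Junb and Jund windows were found in 0 GENCODE M21 transcripts of those genes. The Jund window ends at chr8:70697738, before the GENCODE start of Jund at 70698949, so it may not be the promoter of the counted gene. The Atf3 window lies inside the GENCODE gene, whose first base on the minus strand is chr1:191218039, so another start lies further upstream. The bases just after the Atf3 window were found in 1 GENCODE M21 transcript. Which start was used in these cells was not tested. A match is a description of letters only.

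Levels are given as CPM, counts per 1e6 counts of the library, after TMM scaling, and levels of different genes are compared per kilobase of merged exon. Total counts ranged from 22763835 to 30303566 per library, and TMM factors from 0.942 to 1.03. All 10 members passed the filter on low counts. As a check of cell identity, the epithelial keratin genes Krt8 and Krt18 were detected in every library, with Krt8 between 966 and 2366 CPM, whereas the basal keratin gene Krt5 and the prostate gene Hoxb13 had 0 reads in all 6. The 8 leukocyte markers with an entry summed to between 22.9 and 68.5 CPM in every library. Most of the sum came from Cd14 and Cd68, which the cultures also expressed, so it cannot show whether leukocytes were present. Ptprc was at 0 in bone and lung. Laptm5 had 2.41 CPM in bone and 0.276 in lung, against 0.241 and 0.129 in RM1536 and 1.54 and 1.91 in RM1. The leukocyte gene Lyz2 was at 0 in the 4 cultures, at 2.68 CPM in bone and at 2.88 in lung. Stromal markers summed to 656 CPM in lung against 23.4 to 80.2 elsewhere, of which Col1a1, a collagen gene, made up 604. The part of these markers in the results below was not tested.

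**Figure D1:**
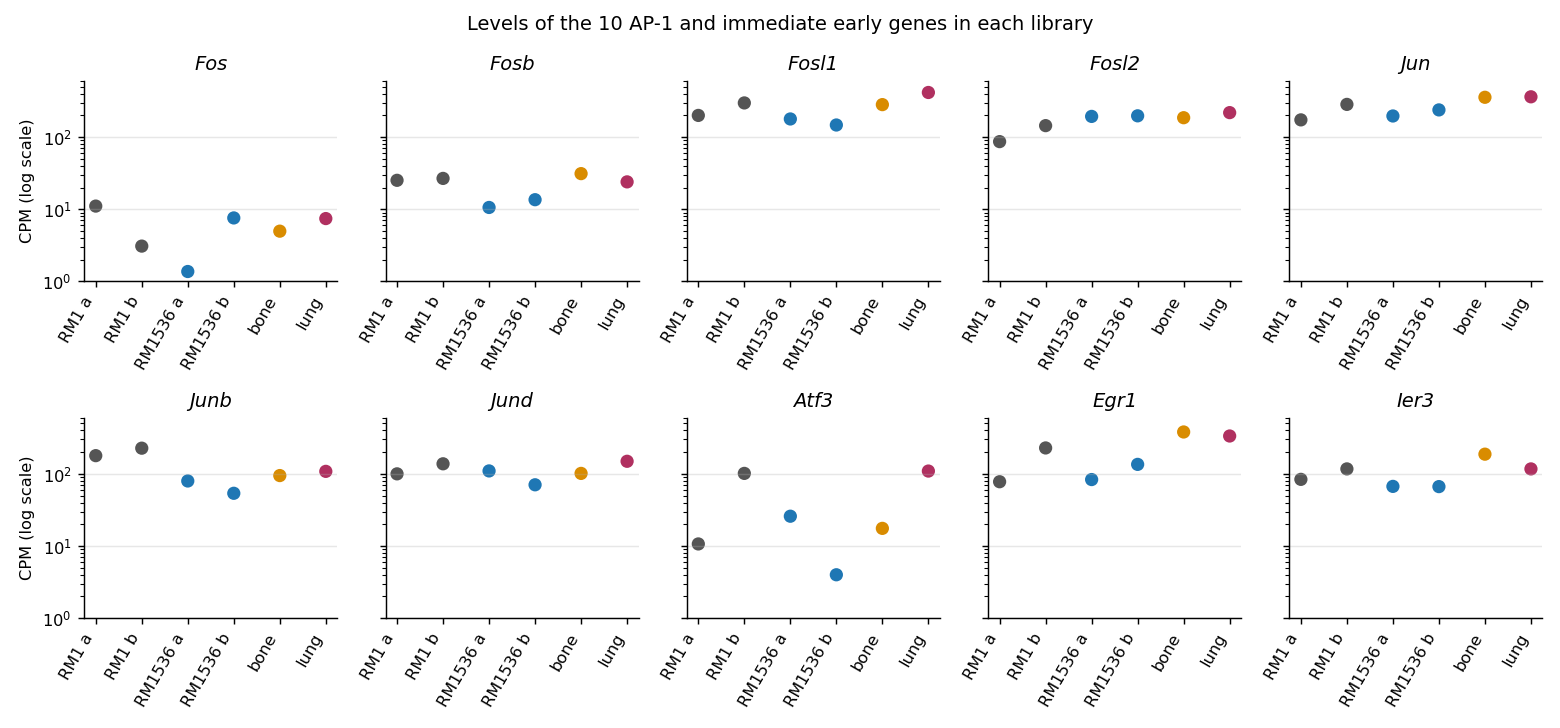
CPM on a log scale (y) of each of the 10 genes in each library (x), 1 point per library, grey for RM1, blue for RM1536, orange for bone and red for lung. Junb lay lower in both RM1536 libraries than in both RM1 libraries, Egr1 and Jun lay highest in bone and lung, and Atf3 and Fos differed widely between a and b.

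Per kilobase, Fosl1, which codes for FRA1, was by far the most abundant Fos family transcript. This rests on merged exon lengths of 2033 bases for Fosl1 and 9680 for Fosl2, which may differ from the lengths of the expressed transcripts. In CPM, without length, Fosl2 lay above Fosl1 in RM1536 (194 and 198 against 179 and 147). By length, Fosl1 led in every library. Fosl1 made up 84.8% and 87.7% of the family's summed level per kilobase in RM1, 79.8% and 73.7% in RM1536, 87.4% in the lung and 84.1% in the bone library. Fosl2, which codes for FRA2, came next in every library, with 7.71% and 8.92% in RM1, 18.2% and 20.8% in RM1536, 9.64% in the lung and 11.6% in the bone library. Its share was thus higher in both RM1536 libraries than in the other 4. Fos and Fosb, the classic fast-induced members, had at most 4.05% and 3.47%, both in RM1 a. The per-length ratio of Fosl1 to Fosl2 was 11.0 and 9.83 in RM1, 4.39 and 3.55 in RM1536, 9.06 in the lung and 7.23 in the bone library.

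In the Jun family the order changed between lines. Junb held the largest share in both RM1 libraries, 40.5% and 36.5%, and the smallest in the other 4: 21.4% and 16.6% in RM1536, 18.8% in the lung and 19.2% in the bone library. Jun held 28.3% and 33.0% in RM1, 38.0% and 53.3% in RM1536, 45.4% in the lung and 52.4% in the bone library. Jund, the member that is usually expressed without a stimulus, held between 28.4% and 40.6%. The per-length ratio of Junb to Jun was 1.43 and 1.11 in RM1, 0.561 and 0.312 in RM1536, 0.414 in the lung and 0.367 in the bone library, so the RM1 ratios did not overlap with the others. A ratio within a library shows unequal change and does not depend on the scaling.

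**Figure D2:**
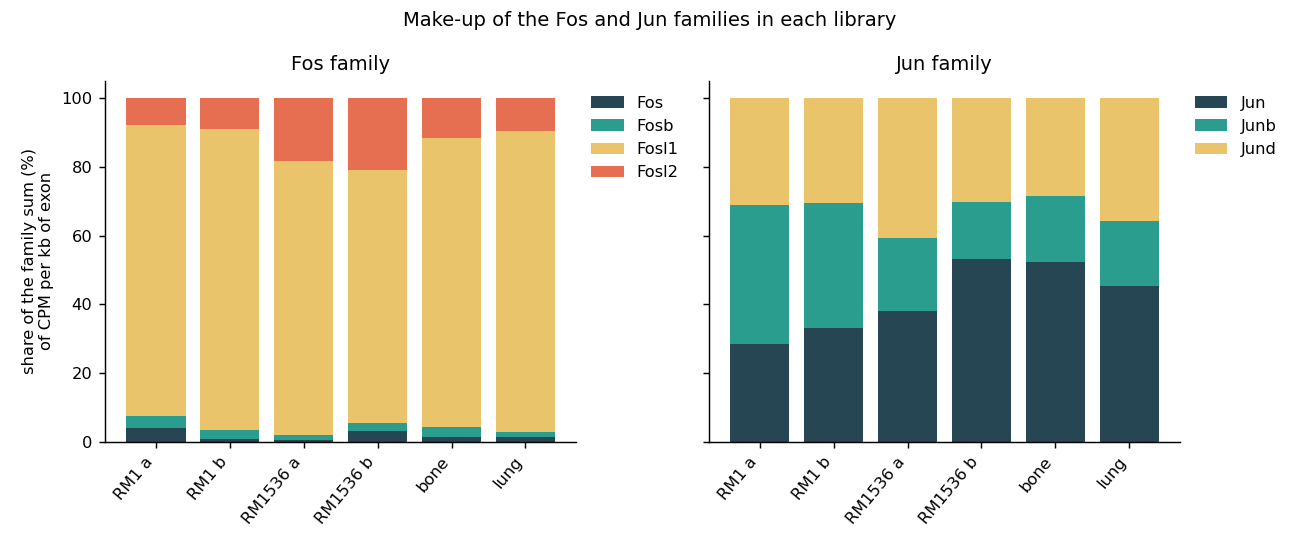
Share (%) of each member in the summed CPM per kilobase of exon of its family (y) in each library (x), Fos family left and Jun family right. Fosl1 takes 73.7% to 87.7% of the Fos family, and the share of Junb is 40.5% and 36.5% in RM1 against 16.6% to 21.4% in the other libraries.

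Reads from opposite strands bear on 4 members, because no source used here gives the strand setting of the counting. In GENCODE M21, Fosl1 (chr19:5447547-5455946) shares 1163 of its 2033 exon bases with Ccdc85b on the other strand. Jund (chr8:70698949-70700616) shares 877 of 1668 with the antisense gene Gm11175. Jun (chr4:95049034-95052222) shares 232 of 3189 with Junos, and Junb (chr8:84974484-84978718) 173 of 2301 with Prdx2. Ccdc85b stood at 20.7 and 13.4 CPM in the RM1 libraries and 45.0 and 59.2 in those of RM1536, opposite in direction to Fosl1. Prdx2 stood at 202 and 141 CPM in the RM1 libraries and 158 and 152 in those of RM1536. Junos stood at 10.6 and 7.72 CPM in the RM1 libraries and 5.59 and 4.43 in those of RM1536, and Gm11175 had no entry. Levels of these 4 members, and the family shares and orders given above, are uncertain to the extent of the shared bases. This bears most on Fosl1 and Jund. The other 6 members share no exon bases with another gene. Of these, Fos lies at chr12:85473890-85477273, Fosb at chr7:19302696-19310051, Fosl2 at chr5:32135801-32157842, Atf3 at chr1:191170296-191218039 and Ier3 at chr17:35821684-35822923 (GRCm38), and all 10 members are annotated as protein coding.

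RM1536 was first set against its parent, from which it differs by the labels and by coming from a pool of clones. Junb fell in RM1536: RM1 had 179 and 227 CPM, and RM1536 had 79.6 and 53.7. The 2 groups did not overlap. The log2 fold change was -1.61 ± 0.27 (SE, n = 2 and 2), which is 3.04-fold lower, with an adjusted p of 0.0318 (edgeR, Benjamini-Hochberg over 13832 genes). In cells recovered from the mouse Junb stood at 94.6 CPM in bone and 108 in lung, both below either RM1 library. In bulk RNA, fewer cells of a type and less RNA per cell cannot be told apart. It was the 1 member of 10 called, where 5.64% of all genes tested were called (3.54% lower and 2.1% higher). The call was lost without RM1 b (log2 fold change -1.42, adjusted p = 0.0596) and without RM1536 b (-1.37, 0.108).

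Fosb lay just outside the threshold. It had 25.2 and 26.8 CPM in the RM1 libraries and 10.6 and 13.6 in those of RM1536, 2.15-fold lower without overlap (log2 fold change -1.10 ± 0.23, adjusted p = 0.0535). DESeq2 called 2 members, Junb and Fosb, where it called 10.5% of genes, and limma-voom called 1, Junb, where it called 6.2%. Ier3, which protects stressed cells from death and prolongs ERK signalling, had 83.8 and 117 CPM in the RM1 libraries and 67.0 and 66.5 in those of RM1536 (-0.59 ± 0.23, adjusted p = 0.206). Fosl1 had 200 and 298 CPM in the RM1 libraries and 179 and 147 in those of RM1536 (-0.61 ± 0.26, 0.239). Both RM1536 libraries thus lay below both RM1 libraries for 4 members, Fosb, Fosl1, Junb and Ier3, as did 26.9% of all genes tested.

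Fosl2 was the 1 member of 10 with a positive fold change when all libraries were used; without RM1 b those of Jun (0.32), Atf3 (0.48) and Egr1 (0.49) were positive too, as was that of Fos without RM1 a (0.51) or RM1536 a (0.07) and that of Jun without RM1536 a (0.03). It had 86.7 and 144 CPM in the RM1 libraries and 194 and 198 in those of RM1536, without overlap (log2 fold change 0.76 ± 0.28, adjusted p = 0.185). Jun had 174 and 284 CPM in the RM1 libraries and 196 and 239 in those of RM1536, and Jund 99.9 and 138 against 110 and 70.5, so both pairs overlapped (-0.07 ± 0.29 and -0.40 ± 0.29). Egr1, a direct target of ERK and SRF signalling, had 77.7 and 229 CPM in the RM1 libraries and 83.3 and 135 in those of RM1536, also with overlap (-0.49 ± 0.52). The median log2 fold change of the 10 members was -0.60, against 0.02 over all genes tested. An unadjusted p under 0.05 was reached by 4 of 10 members and by 23% of all genes.

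**Figure D3:**
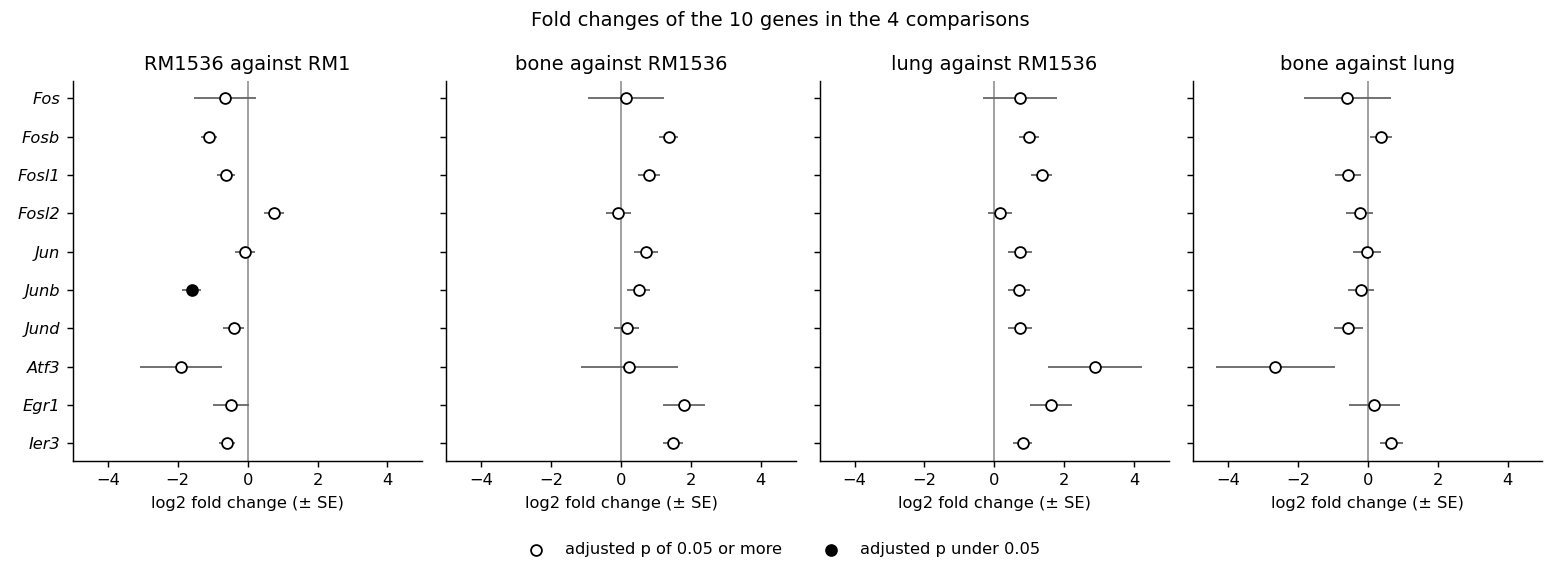
Log2 fold change (x, bars ± SE from edgeR) of each of the 10 genes (y) in the 4 comparisons, with filled points for an adjusted p under 0.05. Only Junb in RM1536 against RM1 is filled, and most values for bone and lung against RM1536 lie to the right of 0.

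The genes around AP-1 were read from 5 lists with 119 entries, of which 116 were tested. The lists were chosen with earlier results of these data known. The shares called below describe the lists and are no independent support for a change of the pathway. In RM1536 against RM1, 83 of the 116 had lower and 33 higher values, where 51.4% of all genes tested had higher ones. Of the 116, 17 lower and 3 higher passed the test, where 3.54% of all genes were called lower and 2.1% higher. Among 31 other immediate early genes tested, 23 were lower and 8 higher (list median -0.48, against 0.02 over all genes), with 5 called lower and 0 higher. Zfp36, which codes for a protein that destabilises inflammatory mRNAs, had 90.4 and 127 CPM in the RM1 libraries and 15.2 and 10.9 in those of RM1536 (log2 fold change -3.06 ± 0.30, adjusted p = 0.00966). Csrnp1, a nuclear factor induced with the AP-1 genes, had 69.7 and 118 CPM against 10.7 and 13.8 (-2.93 ± 0.33, 0.0134). Both also lay below either RM1 library in bone (31.5 and 12.8 CPM) and in lung (25.8 and 23.7). Zfp36 in bone and lung, and Csrnp1 in lung, lay above both RM1536 libraries. The antiproliferative gene Btg2 (-1.38 ± 0.26, 0.0401) and the pseudokinase gene Trib1 (-1.18 ± 0.20, 0.0299) also fell. Arc, best known from synapses, had 3 reads in RM1536 against 197 in RM1 (ratio 0.0159, 95% counting interval 0.00325 to 0.0471).

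Of 16 feedback inhibitors of MAP kinase signalling, 12 had lower and 4 higher values in RM1536 (list median -0.56), and 3 lower and 1 higher were called. The nuclear MAP kinase phosphatase gene Dusp2 had 47.5 and 58.8 CPM in the RM1 libraries and 6.76 and 6.41 in those of RM1536 (log2 fold change -3.01 ± 0.24, adjusted p = 0.00704). Dusp5, an ERK phosphatase gene, fell by 2.38 on the log2 scale (SE 0.42, adjusted p = 0.0344), and Spred3, which codes for an inhibitor of the Ras to Raf step, by 1.94 (SE 0.22, 0.0130). Spry1, also an inhibitor of receptor signalling, rose by 2.43 ± 0.47 (0.0437), from 5.11 and 2.12 CPM to 15.5 and 23.5. Of 25 upstream kinases and SRF factors, 19 were lower and 6 higher (list median -0.10), and 2 were called lower and 0 higher, a share near the 5.64% called over all genes. Egfr, the epidermal growth factor receptor gene, had 3 reads in RM1536 against 261 in RM1 (ratio 0.0120, counting interval 0.00246 to 0.0354), and Map3k1, a kinase upstream of JNK, had a log2 fold change of -1.30 ± 0.27 (0.0496).

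Among 20 other basic leucine zipper genes tested, 15 were lower and 5 higher (list median -0.11), with 2 called lower and 1 higher. The small Maf gene Mafk fell by 1.86 on the log2 scale (SE 0.29, adjusted p = 0.0266), and Batf2, an interferon-responsive AP-1 relative, had 2 reads in RM1536 against 132 in RM1 (ratio 0.0158, counting interval 0.00190 to 0.0583). Maf rose by 4.36 ± 0.65 (0.0233) from 0.167 and 0.106 CPM in RM1 to 1.85 and 3.95. Its RM1 values lay near the level of 3 reads (0.0993 CPM in RM1 a and 0.109 in RM1 b), so the size of the rise is uncertain. Of 24 AP-1 target genes, 14 were lower and 10 higher (list median -0.12), with 5 called lower and 1 higher. Il1rl1, the IL-33 receptor gene, had 140 and 254 CPM in the RM1 libraries and 32.0 and 20.4 in those of RM1536 (-2.91 ± 0.39, 0.0182). Plaur, the urokinase receptor gene, fell by 1.62 (SE 0.26, 0.0265), and the EGF receptor ligand genes Ereg and Hbegf by 1.52 (SE 0.25, 0.0288) and 1.16 (SE 0.21, 0.0364). Hmga2, which codes for an architectural chromatin factor, rose by 1.30 ± 0.24 (0.0392), with 291 and 240 CPM in RM1 libraries and 741 and 564 in RM1536 libraries.

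Of these 20 calls, 3 (Zfp36, Dusp2 and Egfr) held without each of the 4 culture libraries in turn and under each other scaling, filter and tool they were tested with; Egfr did not pass the stricter filter. Without RM1536 b, 17 were lost (adjusted p 0.0548 to 0.155), without RM1536 a 10 (0.0531 to 0.142), without RM1 b 10 (0.0529 to 0.170) and without RM1 a 7 (0.0566 to 0.148). The call of Map3k1 was also lost with upper-quartile scaling (adjusted p = 0.0539) and with the stricter filter (0.0570), and that of Spry1 with the stricter filter (0.0573).

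**Figure D4:**
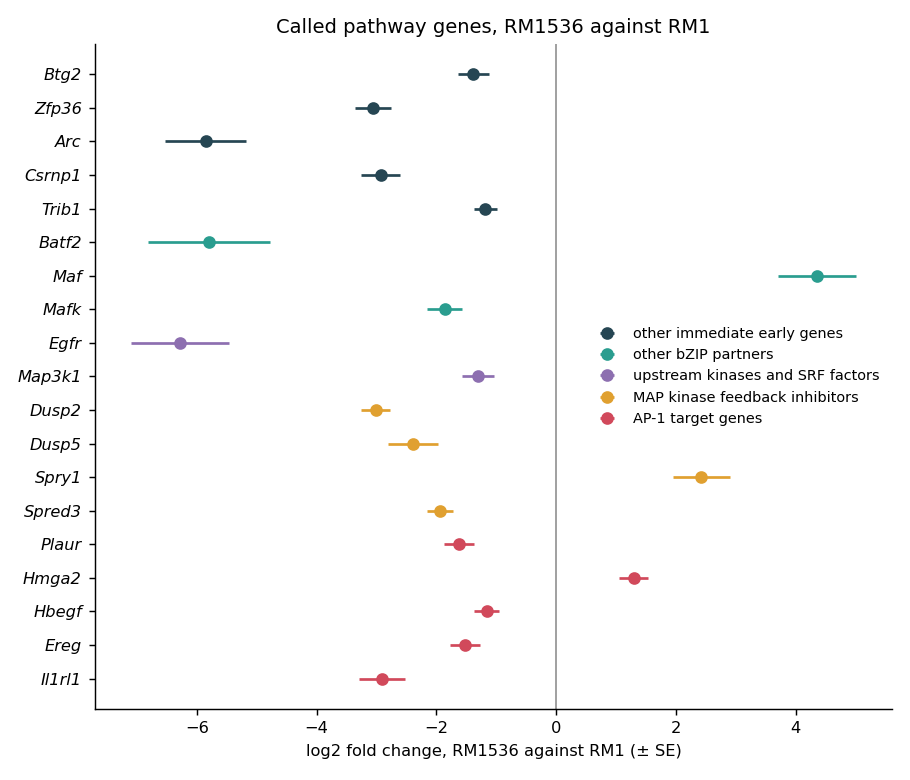
Log2 fold change in RM1536 against RM1 (x, bars ± SE from edgeR) of 19 of the 20 called genes of the 5 lists around AP-1 (y), coloured by list. Maf, Spry1 and Hmga2 lie above 0 and the other 16 below. The fitted values of Arc, Batf2 and Egfr rest on 2 or 3 reads in RM1536, and that of Maf on few reads in RM1.

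By the likeness of centred log2 CPM over the 6 libraries, the genes closest to Junb among 9878 others with a mean of at least 5 CPM were Plaur, Ticam1 and Agrn, with root mean square differences of 0.10, 0.11 and 0.12. For Plaur the RM1 libraries had 227 and 240 CPM, those of RM1536 90.7 and 61.2, bone 120 and lung 137. Like Junb, it was highest in RM1 and lowest in RM1536 b.

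The next comparisons ask what sets recovered cells apart from the line that was injected. Egr1, Jun, Fosb, Fosl1, Junb and Ier3 stood higher in both recovered libraries than in both RM1536 cultures, and no member passed the test in either comparison. This pattern held for 6 of 10 members and for 19.7% of all genes tested. The comparisons of bone and of lung with RM1536 share their controls, so their likeness is no result of its own. With edgeR, 0 of 10 members were called in bone, where 0.0145% of genes were called, and 0 in lung, where 0% were. At an unadjusted p under 0.05, there were 4 members in bone (9.92% of all genes) and 4 in lung (13.8%).

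Egr1 reached 381 CPM in bone and 335 in lung, above all 4 cultures, of which RM1 b was highest at 229. Against RM1536, at 83.3 and 135, it was 3.48-fold higher in bone (log2 fold change 1.80 ± 0.61, adjusted p = 0.392) and 3.06-fold higher in lung (1.62 ± 0.61, 0.347). Jun was also higher in both recovered libraries, with 357 CPM in bone and 363 in lung against 174 to 284 in the cultures. Its log2 fold changes against RM1536 were 0.71 ± 0.35 in bone and 0.74 ± 0.35 in lung (edgeR adjusted p = 0.595 and 0.407). Jun and Egr1 were the 2 members with both recovered libraries above all 4 cultures, a pattern shown by 10.9% of all genes.

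Ier3 stood at 187 CPM in bone, the highest of the 6 libraries, and at 117 in lung, level with RM1 b. Against RM1536, whose duplicates had 67.0 and 66.5, the log2 fold change was 1.49 ± 0.27 in bone (2.81-fold, adjusted p = 0.143) and 0.81 ± 0.28 in lung (0.326). Fosb stood at 31.2 CPM in bone and 24.0 in lung, close to its 25.2 and 26.8 in RM1 and above its 10.6 and 13.6 in RM1536 (1.37 ± 0.27, adjusted p = 0.162, and 0.99 ± 0.28, 0.310). Fosb was thus lowest in the 2 RM1536 cultures. DESeq2 called Fosb and Ier3 in bone (adjusted p = 0.0152 and 0.00195), where it called 2.83% of genes, and limma-voom called 0 members and 0% of genes.

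Fosl1 had 282 CPM in bone and 416 in lung, the latter above every culture. Against RM1536 the log2 fold change was 0.79 ± 0.31 in bone (adjusted p = 0.490) and 1.35 ± 0.31 in lung (2.55-fold, 0.295). In lung, DESeq2 called Fosl1 alone of the members (adjusted p = 0.0173), where it called 2.84% of genes, and limma-voom called 0 members and 0% of genes. Junb was above both RM1536 libraries in each (0.51 ± 0.32, adjusted p = 0.714, and 0.70 ± 0.32, 0.399). Fosl2, with 186 CPM in bone and 219 in lung, was 1.05-fold lower and 1.12-fold higher than in RM1536 (log2 fold change -0.07 ± 0.35 and 0.16 ± 0.34, adjusted p = 0.980 and 0.850). Jund had 101 CPM in bone, within the RM1536 duplicates, and 149 in lung, above them (0.17 ± 0.36 and 0.73 ± 0.35, adjusted p = 0.932 and 0.413), and without RM1536 b the bone value was -0.11.

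The median log2 fold change of the members was 0.61 in bone and 0.77 in lung, against -0.03 over all genes in each. Of the 116 tested genes of the 5 lists around AP-1, 0 were called in bone or lung. Other immediate early genes had positive fold changes in 24 of 31 (bone, median 0.38) and 27 of 31 (lung, median 0.98). Over all genes tested, 47.0% (bone) and 47.5% (lung) had positive ones. Trib1, low in RM1536 at 39.7 and 35.8 CPM, stood at 154 in bone and 118 in lung (log2 fold change 2.03 ± 0.23, adjusted p = 0.0808, and 1.65 ± 0.23, 0.265), and with edgeR it was called in bone without RM1 b (0.0296). DESeq2, which called 2.83% of genes in bone and 2.84% in lung, called Trib1 in bone (adjusted p = 1.49e-08) and lung (2.24e-05). So did edgeR without the filter on low counts (1.83e-08 and 8.54e-06), whereas limma-voom did not call Trib1 in bone (adjusted p = 0.0923). Dusp5 stood at 89.7 and 116 CPM (1.50 ± 0.47, adjusted p = 0.356, and 1.87 ± 0.47, 0.297). Trib1, Dusp5 and Zfp36 (1.27 ± 0.33 in bone and 0.99 ± 0.33 in lung, adjusted p = 0.262 and 0.323) were picked here after their values were seen. DESeq2 called Dusp5 in lung (adjusted p = 0.0156), and edgeR without the filter on low counts called Dusp5 and Zfp36 in both bone (0.000161 and 0.00490) and lung (2.01e-07 and 0.0356). Without that filter, edgeR called 859 of 22081 genes in bone, against 2 of 13832 with it. It also gave Atf3, whose RM1 and RM1536 levels overlapped, an adjusted p of 5.07e-10 in RM1536 against RM1, against 0.391 with the filter. Calls made without the filter are thus weak support. AP-1 targets had list medians of 0.07 in bone and 0.22 in lung.

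Bone and lung were also compared with each other, with 1 library each and the spread taken from the cultures. No member was called by edgeR, DESeq2 or limma-voom, where the 3 tools called 0.00723%, 1.72% and 0% of genes, and 0 of 10 members had an unadjusted p under 0.05 (8.47% of genes). Adjusted p values of the members ran from 0.613 to 1. Atf3 differed most, with 17.5 CPM in bone and 109 in lung (log2 fold change -2.64 ± 1.70, adjusted p = 0.688), and Ier3 was 1.60-fold higher in bone (0.68 ± 0.33, 0.613). Other members lay between 1.02-fold and 1.50-fold of each other. The list of other immediate early genes was lower in bone in 24 of 31 genes (median -0.57), with 0 called, where 51.6% of all genes tested were higher in bone. This count uses the same single lung library as the comparison of lung with RM1536.

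Atf3, which cells switch on under stress, and Fos differed widely between duplicates of the same line. Atf3 had 10.7 CPM (319 reads) in RM1 a and 101 (2865 reads) in RM1 b, a ratio of 9.52 (95% counting interval 8.48 to 10.7). In RM1536 it had 25.8 CPM in a and 3.98 in b, 6.49-fold higher in a (5.34 to 7.93). Its level was thus high in RM1 b and lung, intermediate in RM1536 a and bone, and low in RM1 a and RM1536 b, a 27.5-fold range. Its fold changes carried SEs above 1 (-1.91 ± 1.17 for RM1536 against RM1, and against RM1536 2.88 ± 1.34 for lung and 0.24 ± 1.39 for bone, with adjusted p = 0.391, 0.406 and 0.985), and the first became 0.48 without RM1 b and the last -0.56 without RM1536 b.

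Fos went the other way. It had 11.1 CPM (331 reads) in RM1 a and 3.08 (87 reads) in RM1 b, 3.59-fold higher in a (95% counting interval 2.83 to 4.60). In RM1536 it had 1.37 CPM (34 reads) in a and 7.57 (234 reads) in b, 5.54-fold higher in b (3.85 to 8.19). Bone, at 4.96, and lung, at 7.42, lay inside the range of the cultures. No comparison of Fos came near the threshold (-0.65 ± 0.89 for RM1536 against RM1, and against RM1536 0.14 ± 1.09 for bone and 0.72 ± 1.06 for lung, with adjusted p = 0.715, 0.990 and 0.769), and the first became 0.51 without RM1 a and the second -0.60 without RM1536 a.

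In RM1, 3 of 10 members differed by 2-fold or more between a and b (Fos, Atf3 and Egr1), against 5.36% of genes with at least 5 CPM in either library. In RM1536, 2 of 10 did (Fos and Atf3), against 5.92%. The direction of Atf3, at least 2-fold higher in RM1 b than a and in RM1536 a than b, was shared by 1.69% of genes, and the reverse direction of Fos by 0.601%. Egr1 was 2.94-fold higher in RM1 b than in RM1 a and 1.62-fold higher in RM1536 b than in RM1536 a, so it kept to neither pattern.

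The stress-response relatives of Atf3 described next, chosen after their values were seen, had the same order of duplicates. Ddit3, which codes for CHOP, had 16.1 and 171 CPM in RM1 a and b, 127 and 22.9 in RM1536 a and b, 45.0 in bone and 245 in lung. Atf4, the main factor of the integrated stress response and a known activator of both genes, had 366 CPM in RM1 a and 911 in RM1 b, 956 in RM1536 a and 499 in RM1536 b, 1186 in the lung and 571 in the bone library. In all 3 genes, RM1 b, RM1536 a and lung were higher than RM1 a, RM1536 b and bone. The order was not particular to them, since other listed genes such as Myc, Vegfa, Jdp2 and Mmp3 had it too. Mmp3 had 239 CPM in RM1 b, 253 in RM1536 a and 771 in lung, against 94.4 in RM1 a, 126 in RM1536 b and 168 in bone. The share of all genes with this order was not counted. The Atf3 window shown above holds a TGATGNAA match, a motif chosen with these letters in view. Binding was not measured, and the part of Atf4 in the order of the duplicates was not tested.

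**Figure D5:**
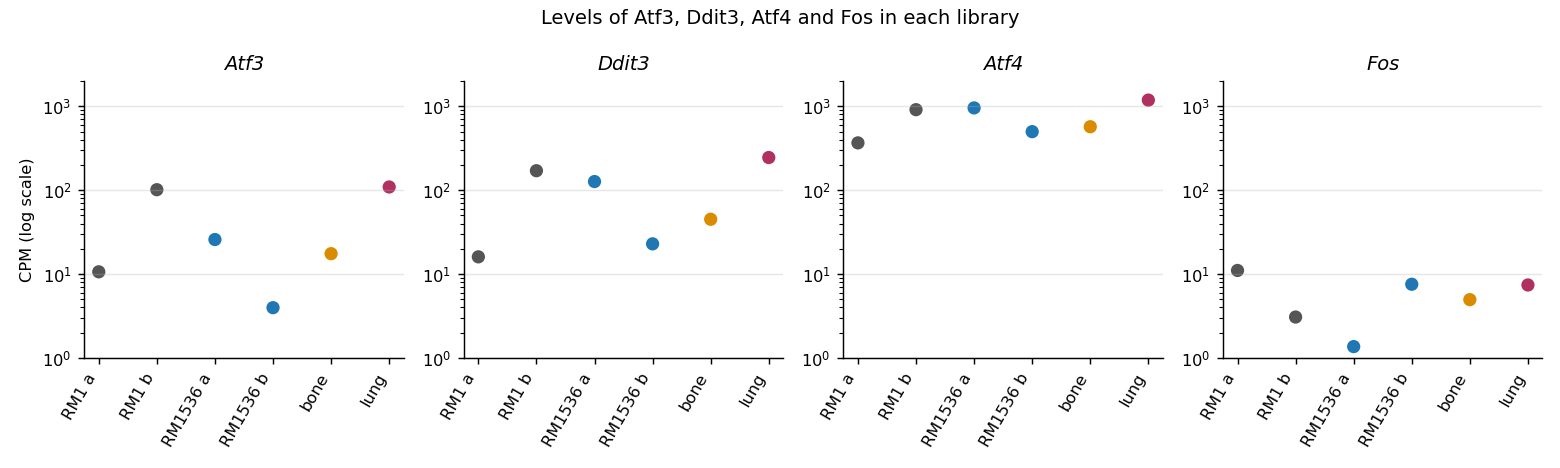
CPM on a log scale (y) of Atf3, Ddit3, Atf4 and Fos in each library (x), 1 point per library, coloured by group. Atf3, Ddit3 and Atf4 are higher in RM1 b than in RM1 a and in RM1536 a than in RM1536 b, and Fos has the opposite order in both pairs.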

How the data were processed

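Messenger RNA was sequenced from 6 libraries in 4 groups, taken from the titles. The authors deposited raw counts per gene symbol. The submitters' processing notes name GRCm38, TopHat2 2.1.10, HTSeq and edgeR without their roles, and no source used here gives the strand setting or annotation release. An entry with no name (0.00626% to 0.00830% of a library) was left out. The counts were fitted in R 4.3.3 with edgeR 4.0.16: filterByExpr, TMM, 1 quasi-likelihood model with 4 groups over 13832 genes, Benjamini-Hochberg adjustment and a call at 0.05. Residual degrees of freedom were 2, so the spread of bone and lung was taken to equal that of the cultures. SEs are the fold change over the square root of F. The edgeR fit was tested on simulated data for RM1536 against RM1 only, with a common dispersion for all genes. The comparisons with bone and lung were not tested in this way. The 10 members are named whatever their values, with every called gene of the pathway lists (1 of them, and some marker genes, are not reported here) and the 3 genes most like a called member. Members and lists were chosen with earlier results of these data known. Of 157 list entries, 7 were missing from the count table. Counting intervals are exact at 95% and cover counting error only. Positions, exon lengths and overlaps are from GENCODE M21 (GRCm38), and promoters from RefSeq. Alternatives were RLE and upper-quartile scaling, DESeq2 1.42.0, limma-voom (limma 3.58.1), no filter, a stricter filter (at least 5 CPM in 2 libraries), a replicate block, and leaving out each culture library.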

Additional observations from a re-analysis of the deposited data

How the results depend on the processing

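Members called in RM1536 against RM1 numbered 1 with both scalings, limma-voom and the stricter filter, 2 with DESeq2, 4 without a filter on low counts and 0 to 1 when a culture library was left out. In bone the count was 2 with DESeq2 and 3 without a filter, in lung 1 and 3, and in bone against lung 1 without a filter, against 0 in each with edgeR and its filter. Over all genes, the count in RM1536 against RM1 was 780, and 1467 with DESeq2, 2394 without a filter, 426 with the stricter filter and 196 to 513 with a library left out. In bone it was 2, and 370 with DESeq2, 859 without a filter and 0 to 128 with a library left out. In lung it was 0, and 359, 1299 and 0 to 7, and in bone against lung 1, and 218, 754 and 1 to 32. With a replicate block on the letters, 0 members (Junb adjusted p = 0.0832), 7 of the 20 pathway calls and 295 genes in all remained called. The duplicates' differences correlated at -0.367 across genes, and with the letters crossed, an alternative chosen after seeing the data, 6 members and 3165 genes were called. Leaving out a culture library turned the sign of these log2 fold changes: in RM1536 against RM1, Fos (-2.38 to 0.51), Jun (-0.42 to 0.32), Atf3 (-3.85 to 0.48) and Egr1 (-1.10 to 0.49); in bone against RM1536, Fos (-0.60 to 1.86), Jund (-0.11 to 0.53) and Atf3 (-0.56 to 2.14). The cause was not tested. Of 716 fold changes under an alternative, 613 kept direction and side of the threshold, 65 lost a call, 29 gained one and 9 turned. No scaling moved the median of all genes by over 0.1 (log2).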
